A study of Rattus norvegicus with 7 samples.

Results

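The Id genes, the transforming growth factor beta (TGF-β) ligands and the feedback inhibitors of TGF-β and bone morphogenetic protein (BMP) signalling were followed in rat mesenchymal stem cells (rMSCs) at 4 h after seeding. The members were fixed by gene symbol as Id1, Id2, Id3, Smad6, Smad7, Skil, Tgfb1, Tgfb2 and Tgfb3. Of these 9 genes, 8 had a row among the 17147 symbols of each library, and Skil was not analysed here. The study compared cells on ISB-P, a polyurethane made from polycaprolactone and propoxylated isosorbide, with cells on plain polycaprolactone (PCL). For the RNA measurement, 20000 primary rMSCs were placed on ISB-P films, PCL films (both 16 mm across) or tissue culture plastic (TCP). The labels give the same serum-containing growth medium for the culture of all groups. Values of 3 ISB-P, 3 PCL and 1 TCP library were analysed. The methods describe bone marrow from a male Sprague-Dawley rat aged 6 weeks, so the replicates are not shown to be separate animals, and p-values measure only the spread between these samples.

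TGF-β and BMP ligands bind paired serine/threonine kinase receptors that phosphorylate Smad proteins. Smad2 and Smad3 mainly serve TGF-β and activin, whereas Smad1, Smad5 and Smad9 mainly serve BMPs, and both groups enter the nucleus with Smad4. Id1, Id2 and Id3 are classical BMP target genes. They encode small helix-loop-helix proteins without a DNA-binding region, which sequester E proteins and so keep tissue-specific bHLH factors from binding DNA. Smad6 and Smad7, the inhibitory Smads, are induced by the pathway and block it at the receptor, Smad6 mainly for BMPs and Smad7 for both branches. In mesenchymal stem cells the pathway is known for its part in the choice between bone, cartilage, fat and contractile fates.

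The stretches below are the 150 bases before the annotated start of 5 members. Id1, Id2 and Tgfb2 are shown as the members with higher values on ISB-P, and Id3 as the Id member that was not higher. Smad7 was the only member both analysed and searched that held matches to the GC-rich Smad element. The stretches were taken from the RefSeq promoter windows of the GRCr8 rat build. In these, 8 of the 9 members, Skil included and Smad6 not, had an entry. The submitters' processing notes name the older build rn5 for the reads. Each is written 5′ to 3′ on the strand of the gene, with matches to the motifs searched in capitals.
Id1 (chr3:161671414-161671563, plus strand): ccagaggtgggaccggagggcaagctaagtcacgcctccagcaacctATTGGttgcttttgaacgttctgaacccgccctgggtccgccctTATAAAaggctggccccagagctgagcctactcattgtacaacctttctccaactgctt
Id2 (chr6:47470996-47471145, minus strand): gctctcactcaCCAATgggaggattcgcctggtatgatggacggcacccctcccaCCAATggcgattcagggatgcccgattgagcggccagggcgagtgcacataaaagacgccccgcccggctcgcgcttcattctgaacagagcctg
Id3 (chr5:153656141-153656290, plus strand): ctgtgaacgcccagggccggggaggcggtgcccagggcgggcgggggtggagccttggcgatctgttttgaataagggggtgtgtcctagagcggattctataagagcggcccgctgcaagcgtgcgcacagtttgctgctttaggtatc
Tgfb2 (chr13:100792686-100792835, minus strand): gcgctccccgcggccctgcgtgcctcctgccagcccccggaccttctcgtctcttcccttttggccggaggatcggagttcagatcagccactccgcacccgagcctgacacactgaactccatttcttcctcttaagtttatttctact
Smad7 (chr18:71263358-71263507, plus strand): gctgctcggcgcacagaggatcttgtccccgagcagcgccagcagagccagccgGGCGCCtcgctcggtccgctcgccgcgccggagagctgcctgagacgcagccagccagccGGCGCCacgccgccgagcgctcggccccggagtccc

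Motifs were searched on both strands of the whole RefSeq window, which is longer than the stretch shown and runs past the start. These were GTCTAGAC, the palindromic Smad element, held by 0.197% of the 33469 promoters, CAGAC, the short Smad element (50.1%), GGCGCC, a GC-rich Smad element (11.0%), and TGACGTCA, the cyclic AMP element (1.83%). TATAAA (14.2%) and CCAAT (37.5%), added after the sequences were seen, do not overlap them in the letters shown. Smad7 held GGCGCC at positions -96 and -36, counted back from -1 at the last base before the start. Id1 held TATAAA at -59 and CCAAT on the opposite strand at -103, and Id2 held CCAAT at -139 and -95. Outside the stretch shown, Id1 also held CAGAC at position 24 after the start and Id2 a further CCAAT on the opposite strand at -178. Id3 and Tgfb2 held none of the 6 motifs in the window. A match is a description of the letters and not of a bound site, and a missing match concerns only this window.

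No label states the unit, and the values are read here as FPKM. FPKM divides fragments by the length of the transcript and the size of the library, so that levels of different genes can be set side by side. The number of reads behind the values is unknown, and the error of a value is the spread of the 3 libraries of a film. The libraries summed to between 539393 and 660124 FPKM, and the highest sum was that of ISB-P replicate 3, which was also the lowest film library for Id3, Smad6, Smad7, Tgfb1 and Tgfb3 and the highest for Tgfb2. All 8 mesenchymal markers looked for (Nt5e, Thy1, Eng, Cd44, Itgb1, Pdgfrb, Col1a1, Vim) exceeded 1 FPKM in every library. None of the 6 endothelial markers reached 1 FPKM in any library, and Hba1 and Hbb were listed at 0 throughout. Of the 7 haematopoietic markers with a row, 4 (Cd14, Cd68, Lyz2 and Csf1r) exceeded 1 FPKM in every library, while Cd34 was listed at 0 throughout. Haematopoietic markers summed to 129.5 FPKM on TCP, 39.2 to 46.6 on PCL and 39.4 to 45.3 on ISB-P. In such bulk samples a different share of a cell type and a different amount of RNA per cell cannot be told apart.

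The members spanned a wide range of levels. On PCL, Id3 was the highest at 470 ± 58.6 FPKM (SD, n = 3), followed by Tgfb1 at 154.4 ± 10.3, Tgfb2 at 38.5 ± 10.4, Tgfb3 at 32.1 ± 1.45, Id2 at 26.1 ± 3.69, Id1 at 23.3 ± 3.47, Smad7 at 17.4 ± 1.55 and Smad6 at 7.15 ± 2.25. Neighbours in this order had separate library ranges except Tgfb2 with Tgfb3 and Id2 with Id1. On ISB-P the order was Id3, Tgfb1, Tgfb2, Id2, Id1, Tgfb3, Smad7 and Smad6, and the ranges of Id2, Id1 and Tgfb3 overlapped from neighbour to neighbour. Id3 made up 87.9% to 90.4% of the summed FPKM of Id1, Id2, Id3 and Id4 on PCL, 83.3% to 85.5% on ISB-P and 86.5% on TCP. Tgfb1 was the leading ligand of the 3 in every library, with 51.3% to 73.2% of their sum on the films and 59.6% on TCP.

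**Figure D1:**
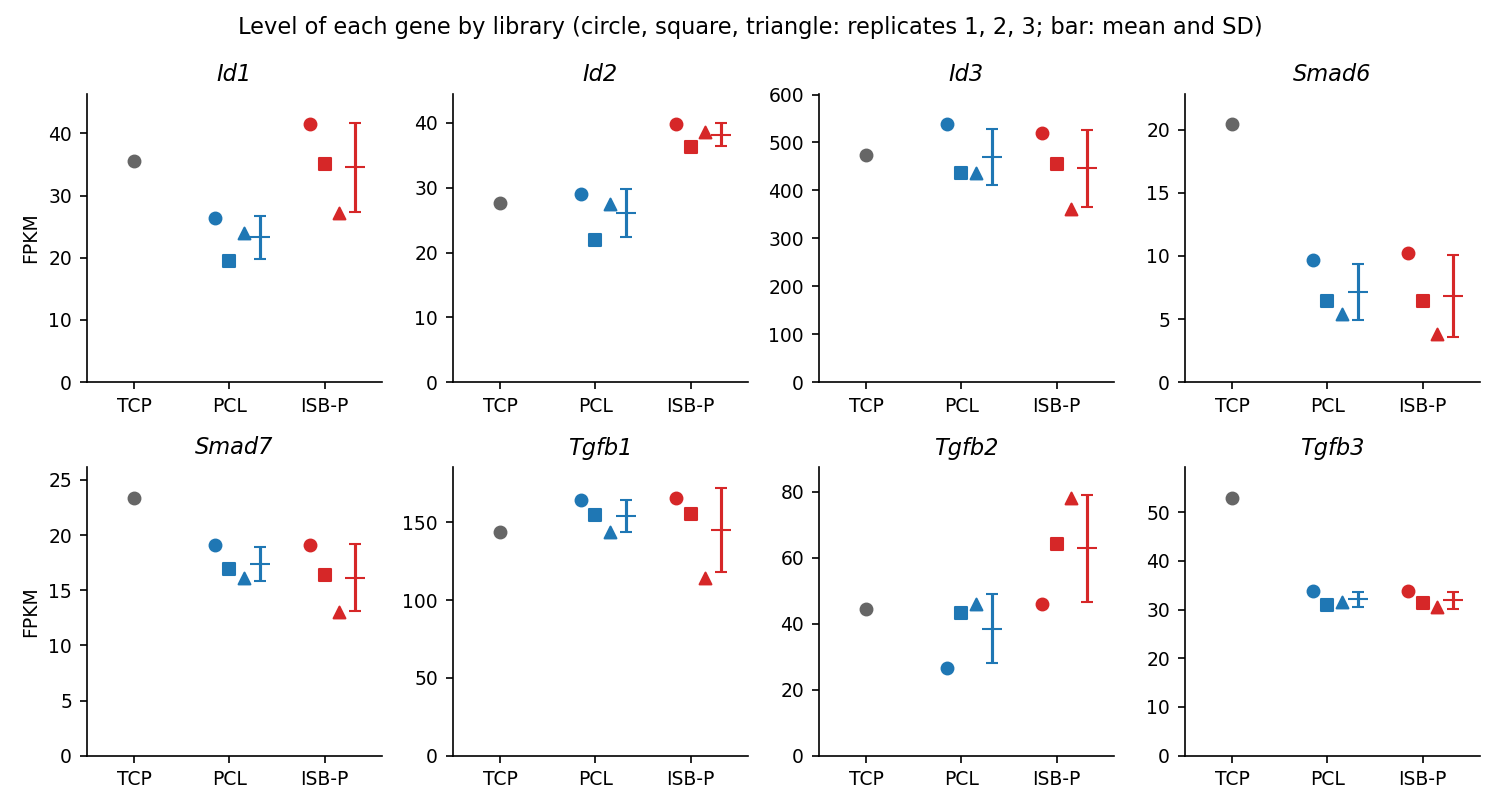
Level of the 8 members (vertical axis, FPKM from 0) in the TCP library, the 3 PCL and the 3 ISB-P libraries; circles, squares and triangles are replicates 1, 2 and 3, and the bar beside them is the mean with its SD. For Id1, Id2 and Tgfb2 all ISB-P points lie above all PCL points, while for Smad6, Smad7 and Tgfb3 the TCP point lies above all film points.

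Between the films, the mean FPKM on ISB-P was 1.48 times that on PCL for Id1, 1.46 times for Id2 and 1.63 times for Tgfb2, and 0.928 to 0.995 times for the other 5 members. Without regard to replicate numbers, none of the 8 members passed an adjusted p under 0.05 in limma, where 1.10% of the 9467 tested genes were called higher on ISB-P and 0.623% lower. With every library set to a common total, these counts over all genes were 70 and 70 in place of 104 and 59, and the median log2 fold change over all genes was -0.09 in place of 0.02. At an unadjusted p under 0.05, Id1, Id2 and Tgfb2 passed, as did 12.1% of all tested genes in either direction. The labels number the replicates but state no pairing across the films. A pairing by number was inferred from likeness in these same data, so a limma fit that takes the number as a block is given as well. In it, Id1, Id2 and Tgfb2 were called higher on ISB-P at the same threshold, against 13.0% of all tested genes called higher and 11.4% called lower. The 3 ISB-P libraries lay above the 3 PCL libraries without overlap for these same 3 of 8 members and for 8.17% of all tested genes.

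Id1, which restrains differentiation and supports growth in many progenitor cells, measured 26.3, 19.5 and 24.1 FPKM on PCL (replicates 1, 2 and 3, an order kept from here on) and 41.4, 35.1 and 27.1 FPKM on ISB-P. The ISB-P libraries were thus all above the PCL libraries, although ISB-P replicate 3 exceeded PCL replicate 1 only narrowly. The log2 fold change on the FPKM + 1 scale was 0.54, with a standard error of 0.20. Its adjusted p was 0.317 in the limma fit that ignores the numbers and 0.0120 in the blocked fit. Within replicates 1, 2 and 3 the ratio of ISB-P to PCL was 1.57, 1.80 and 1.13. On TCP Id1 was 35.5 FPKM, inside the range of the ISB-P libraries and above every PCL library.

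Id2, the family member best known from lymphoid and fat cell development, was the steadiest of the 3 on ISB-P. The PCL libraries gave 29.0, 22.0 and 27.4 FPKM and the ISB-P libraries 39.8, 36.2 and 38.6. Here every ISB-P library was clear of the PCL range. The log2 fold change was 0.54, with a standard error of 0.14. Its adjusted p in limma was 0.164, against 0.00212 once blocked, and the ratios within replicates were 1.37, 1.65 and 1.41. TCP, at 27.6 FPKM, lay within the PCL range.

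Tgfb2 encodes the TGF-β isoform that needs the coreceptor betaglycan (Tgfbr3) for strong receptor binding. The PCL libraries gave 26.6, 43.1 and 45.8 FPKM and the ISB-P libraries 46.0, 64.2 and 78.1. The lowest ISB-P library and the highest PCL library were nearly equal, but each ISB-P library was well above the PCL library of its own number, by 1.73-fold, 1.49-fold and 1.70-fold. The log2 fold change was 0.70, with a standard error of 0.27. Its adjusted p in limma was 0.359, against 4.17e-04 once blocked. TCP was at 44.5 FPKM, within the PCL range.

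**Figure D2:**
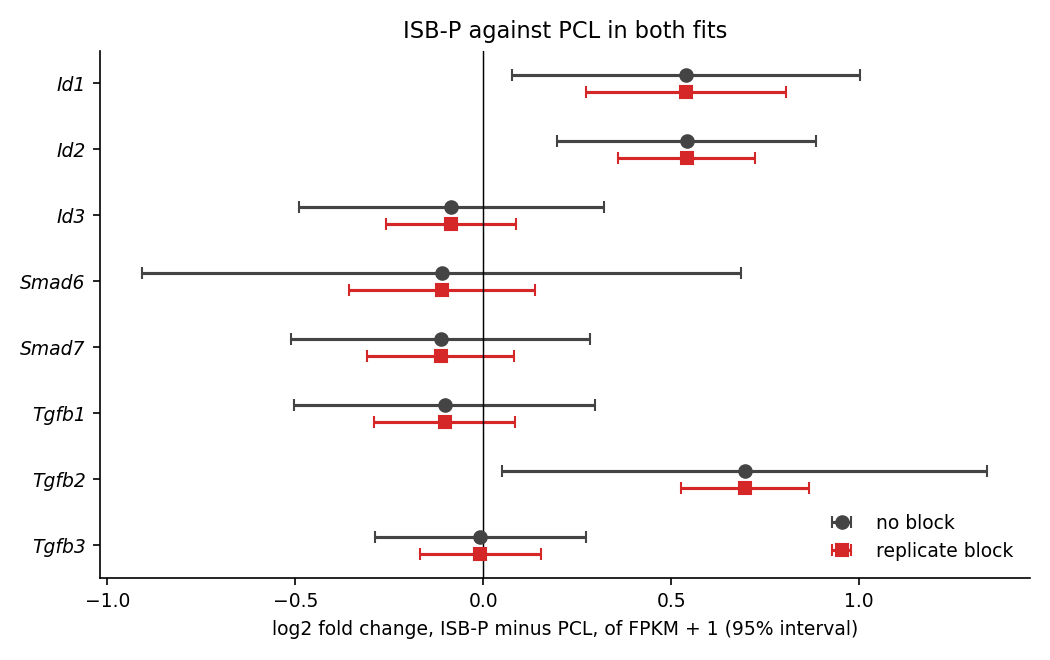
Log2 fold change of FPKM + 1 between ISB-P and PCL for each member (horizontal axis) with its 95% interval, in the limma fit without (circles) and with (squares) a block for the replicate number. Intervals of Id1, Id2 and Tgfb2 lie above 0 in both fits, those of the other 5 members span 0 in both, and the block narrows the intervals.

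Id3, the most abundant Id gene of these cells, was 538, 436 and 436 FPKM on PCL and 520, 456 and 361 on ISB-P. The films overlapped, and the log2 fold change of -0.09 had a 95% interval from -0.49 to 0.32 without the block and from -0.26 to 0.09 with it. The log2 fold change of 0.54 estimated for Id1 and Id2 lay above both of these intervals. Without the block, however, their own 95% intervals, from 0.08 to 1.00 and from 0.20 to 0.88, overlapped that of Id3. Neither fit tested one gene against another. The Id genes were also compared as ratios within a library, which a single scaling factor per library does not change, a comparison added after the values were seen. Id1 was 4.90%, 4.47% and 5.52% of Id3 on PCL, 7.96%, 7.70% and 7.51% on ISB-P and 7.48% on TCP. Id2 was 5.39%, 5.03% and 6.29% of Id3 on PCL, 7.65%, 7.95% and 10.7% on ISB-P and 5.82% on TCP. For both ratios the lowest ISB-P library exceeded the highest PCL library (two-sided exact permutation test, p = 0.1 for each, the smallest that 3 against 3 libraries allow). On TCP the Id1 ratio lay near those of ISB-P, just under the lowest, and the Id2 ratio lay among those of PCL. Id4, a family member that is not among the 9 genes, was 5.81 ± 2.22 FPKM on PCL, 7.11 ± 0.280 on ISB-P and 10.9 on TCP, and the films overlapped.

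**Figure D3:**
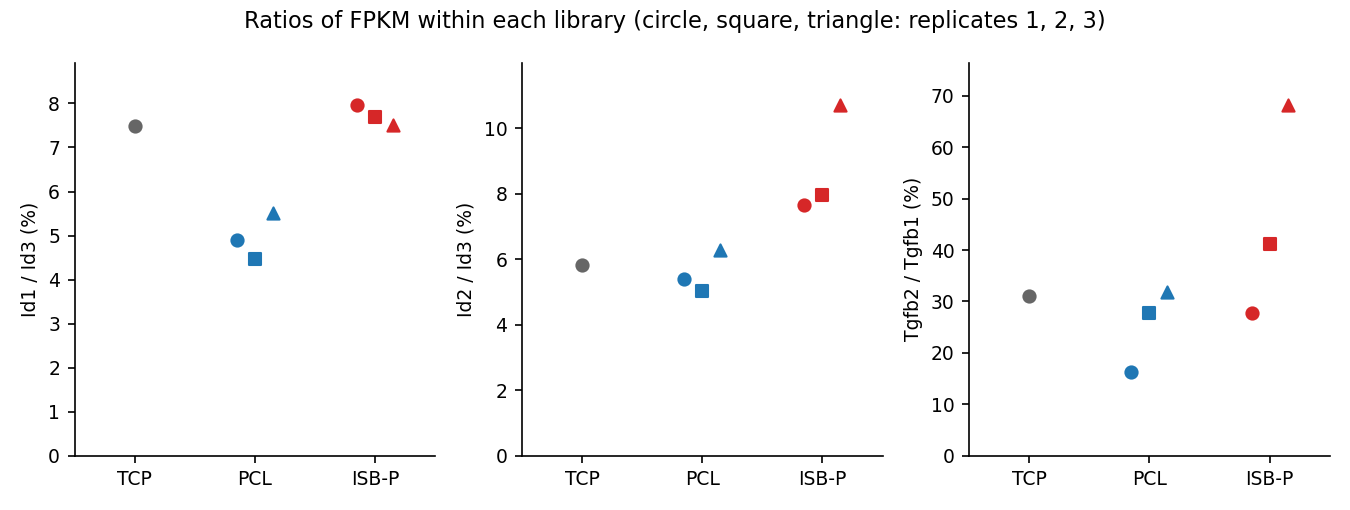
Ratio in percent of Id1 to Id3, Id2 to Id3 and Tgfb2 to Tgfb1 (vertical axes from 0) in each library, with circles, squares and triangles for replicates 1, 2 and 3. The Id1 to Id3 ratio lies between 7.51% and 7.96% on ISB-P and between 4.47% and 5.52% on PCL, while the Tgfb2 to Tgfb1 ratio overlaps between the films.

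Among the ligands, Tgfb1 and Tgfb3 differed between the films by less than the replicate spread. Tgfb1, the main isoform of bone and of blood-derived cells, was 164, 155 and 144 FPKM on PCL and 166, 156 and 114 on ISB-P. Replicates 1 and 2 were nearly identical between the films and replicate 3 was lower on ISB-P. Tgfb3, an isoform linked to cartilage formation in mesenchymal stem cells, was 33.7, 31.0 and 31.5 FPKM on PCL and 33.9, 31.4 and 30.4 on ISB-P. Its log2 fold change of -0.01 had the narrowest interval of the 8 members, from -0.29 to 0.27 without the block and from -0.17 to 0.15 with it. Tgfb2 amounted to 16.2%, 27.8% and 31.8% of Tgfb1 on PCL and 27.7%, 41.3% and 68.2% on ISB-P, so this ratio overlapped between the films (exact permutation test, p = 0.3), while it was higher on ISB-P within each of the 3 replicate numbers.

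Neither inhibitory Smad was called in either fit. Smad7 was 19.1, 17.0 and 16.1 FPKM on PCL and 19.1, 16.4 and 13.0 on ISB-P. Smad6 was 9.67, 6.42 and 5.37 FPKM on PCL and 10.2, 6.45 and 3.79 on ISB-P. For both genes the films overlapped, the first 2 replicates differed by little and ISB-P replicate 3 was the lowest library. The log2 fold change was -0.11 for each, with 95% intervals from -0.51 to 0.28 for Smad7 and from -0.91 to 0.69 for Smad6, and with the block from -0.31 to 0.08 and from -0.36 to 0.14. Without ISB-P replicate 3 the log2 fold changes of Smad6, Smad7, Id3 and Tgfb1 turned to 0.20, 0.03, 0.06 and 0.06, so the sign of these values turned without that library. Leaving out PCL replicate 1 also turned the values of Id3 and Smad6, to 0.02 and 0.10.

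On TCP, Smad6, Smad7 and Tgfb3 had their highest values. Smad6 was 20.4 FPKM on TCP against at most 10.2 on any film, Smad7 was 23.4 against at most 19.1, and Tgfb3 was 52.9 against at most 33.9. These 3 of the 8 members were above all 6 film libraries, as were 25.4% of all tested genes. The log2 ratio of TCP to the PCL mean, with 1 added to each, was 1.39 for Smad6, 0.40 for Smad7 and 0.71 for Tgfb3, and that of TCP to the ISB-P mean was 1.45, 0.51 and 0.71. Over the scalings tried, these ratios ranged from 1.39 to 1.53 against PCL for Smad6, from 0.40 to 0.52 for Smad7 and from 0.71 to 0.82 for Tgfb3, while the median of all tested genes moved from -0.07 to 0.04. Against ISB-P that median moved from -0.08 to 0.11, and the 3 ratios reached 1.61, 0.68 and 0.90. Within a library, Smad6 was 0.874 of Smad7 on TCP and 0.292 to 0.536 on the films. The other 5 members lay within the film range on TCP. A single TCP library gives no replicate check, and the TCP library also had the highest summed haematopoietic markers, 129.5 FPKM against at most 46.6 on the films. Their part in the TCP values was not tested.

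**Figure D4:**
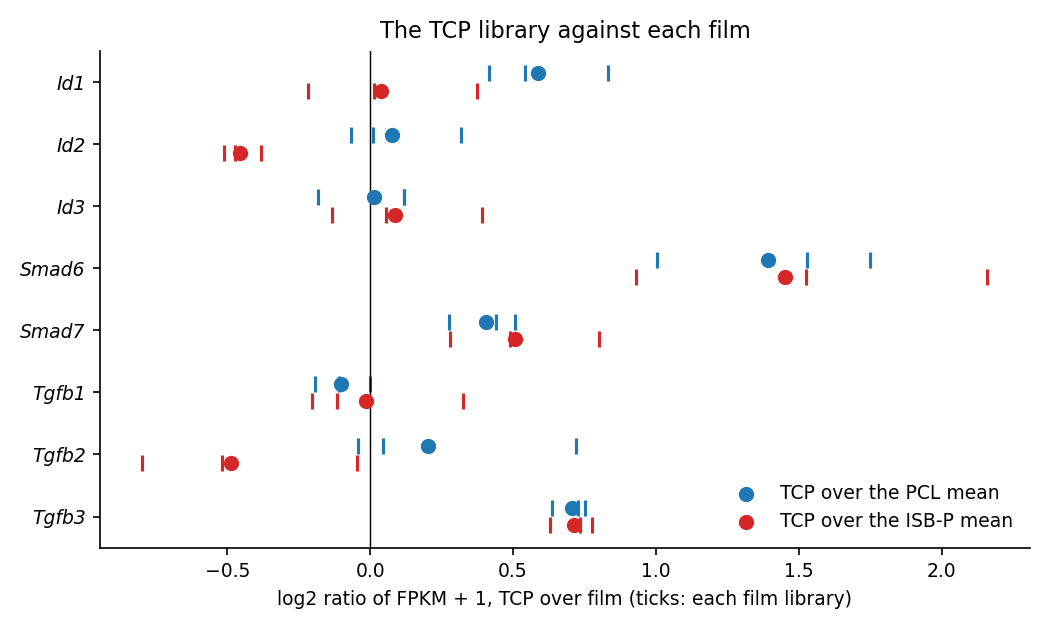
Log2 ratio of FPKM + 1 of the single TCP library over the PCL mean (blue circles) and the ISB-P mean (red circles) for each member; ticks give the ratio to each film library on its own. Smad6, Smad7 and Tgfb3 lie above 0 against every film library, and Id2 lies below 0 against every ISB-P library but around 0 against PCL.

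The other genes of the pathway were read from 9 lists with 125 symbols, of which 121 had a row and 103 were tested. Without the block, limma called 2 of the 103 higher and 1 lower on ISB-P, beside the 1.10% and 0.623% of all tested genes. The 1 lower gene, Smad9, passed the filter on low values only through its PCL libraries, so its direction was built into its selection. With the block 17 were higher and 24 lower, where 13.0% and 11.4% of all genes were called. Their median log2 fold change was -0.0039, against 0.02 over all tested genes. Calls were thus made in both directions.

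On the list of 21 tested TGF-β target genes, 2 genes were higher without the block. Klf10, a zinc finger repressor first known as a TGF-β inducible early gene, was 19.6, 22.7 and 23.4 FPKM on PCL and 46.3, 49.96 and 59.7 on ISB-P, with 43.5 on TCP. Its log2 fold change was 1.21 ± 0.15 (SE, adjusted p = 0.0166 in limma). For Klf10 the films were far apart. The list as a whole had 5 genes higher and 3 lower with the block, beside 13.0% and 11.4% of all tested genes. Its median log2 fold change was 0.01.

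The lower gene was Smad9, the least abundant of the 6 receptor-regulated and common Smads. It was 1.44, 1.499 and 1.40 FPKM on PCL and 0.532, 0.543 and 0.576 on ISB-P, a log2 fold change of -0.66 ± 0.09 (SE, adjusted p = 0.0193 in limma). It passed the filter on low values only through its PCL libraries, so that a difference was built into its selection. Smad1, a BMP Smad, was 18.5 ± 1.55 FPKM on PCL and 23.6 ± 0.313 on ISB-P, and Smad3, a TGF-β Smad, was 47.3 ± 1.29 and 56.1 ± 1.61. Neither gene overlapped between the films, and both were called higher with the block alone (adjusted p = 0.0149 and 0.0375).

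Of 9 tested ligands outside the members, the block called 3 higher and 4 lower on ISB-P, beside 13.0% and 11.4% of all tested genes. None was called without it, where 5 had an unadjusted p under 0.05 in limma (12.1% of all tested genes). Inhba, the subunit of activin A, was 228, 161 and 184 FPKM on PCL and 399.6, 298 and 327 on ISB-P (adjusted p = 0.0898 in limma, 5.84e-05 with the block), with 130.7 on TCP. Bmp1, a protease that trims procollagen despite its name, was 84.0 ± 7.69 FPKM on PCL and 90.1 ± 12.4 on ISB-P. Of the 10 activation genes, which store or release latent TGF-β, 3 were lower with the block, beside 11.4% of all tested genes. The 3 included Furin (48.7 ± 9.30 and 40.7 ± 10.1 FPKM on PCL and ISB-P, adjusted p = 0.0300 in limma with the block) and Emilin1 (49.2 ± 11.2 and 38.1 ± 13.0). The other was Itgb8, a subunit of an integrin that activates TGF-β, which passed the filter on low values only through its PCL libraries, as Smad9 did.

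Among 12 tested receptors, the block called 1 higher and 3 lower on ISB-P, beside 13.0% and 11.4% of all tested genes. None was called without it, where 3 had an unadjusted p under 0.05 in limma (12.1% of all tested genes). Tgfbr1 and Tgfbr2 were not called in either fit. Tgfbr1, the type I receptor, was 26.6 ± 7.58 FPKM on PCL and 33.4 ± 13.6 on ISB-P. Tgfbr2, the type II receptor, was 46.6 ± 3.49 and 41.7 ± 6.98, with 94.0 on TCP. Tgfbr3, the betaglycan mentioned above and picked after its value was seen, was 5.52 ± 0.3304 FPKM on PCL and 3.43 ± 0.149 on ISB-P, lower with the block alone (adjusted p = 0.00291).

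Grem1 (gremlin), a BMP antagonist, was 315, 367 and 427 FPKM on PCL and 225, 245 and 336 on ISB-P, so the films overlapped but each ISB-P library was under the PCL library of its number (adjusted p = 0.398 in limma, 0.00209 with the block). It was 1 of 2 genes lower with the block among the 12 tested secreted inhibitors, beside 11.4% of all tested genes. Crim1, at 19.1 ± 2.86 and 16.1 ± 3.58 FPKM, was not called. Bambi, a decoy receptor that is itself a BMP and TGF-β feedback target, was 24.4, 22.0 and 20.4 FPKM on PCL and 15.7, 15.5 and 12.4 on ISB-P, without overlap (adjusted p = 0.132 in limma, 0.00133 with the block). It was the only lower gene with the block among the 16 intracellular regulators, of which 3 were higher (11.4% and 13.0% of all tested genes). The 3 higher genes included the deubiquitinase Usp15 at 29.9 ± 8.34 and 42.4 ± 20.3 FPKM (adjusted p = 0.0200 in limma with the block).

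BMP target genes outside the members went both ways. With the block 3 of 12 were higher and 5 lower on ISB-P, beside 13.0% and 11.4% of all tested genes. None was called in the fit without it, where 3 had an unadjusted p under 0.05 in limma (12.1% of all tested genes). Hes1, a bHLH repressor better known as a Notch target, was 26.04, 28.4 and 27.3 FPKM on PCL and 47.8, 48.8 and 36.9 on ISB-P (adjusted p = 0.0951 in limma, 0.00159 with the block). Unc5b, a netrin receptor, was 68.3 ± 12.7 and 52.1 ± 15.7 FPKM, called lower with the block alone (adjusted p = 0.00876). Of the 5 E proteins and Twist factors, the partners and relatives that Id proteins act on, 2 were lower with the block (11.4% of all tested genes). One was Tcf3, at 37.0, 27.2 and 23.8 FPKM on PCL and 27.9, 20.8 and 12.9 on ISB-P (adjusted p = 0.592 in limma, 0.00684 with the block), where the films overlapped. Twist1, at 88.2 ± 16.8 and 71.8 ± 18.6 FPKM, was not called.

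**Figure D5:**
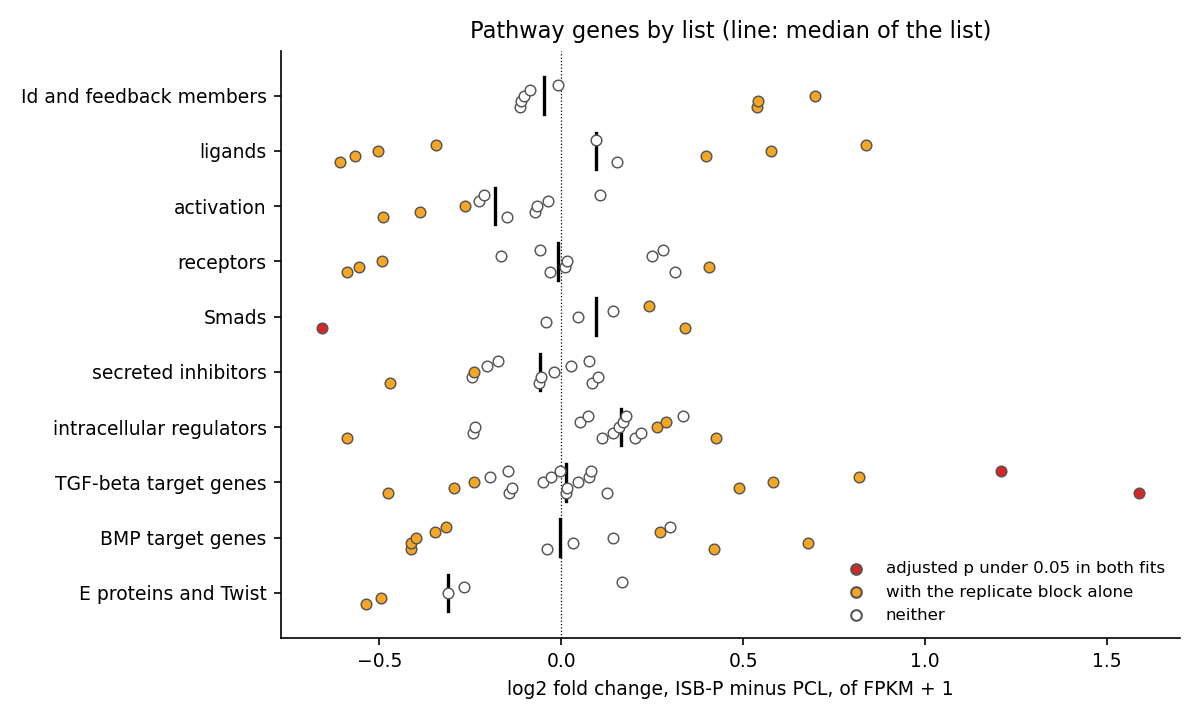
Log2 fold change of FPKM + 1 between ISB-P and PCL (horizontal axis) for the tested genes of each list, with a line at the list's median; red points had an adjusted p under 0.05 in both limma fits, orange points with the replicate block alone and open points in neither. Of the 3 red points, 2 lie on the right, Klf10 among them. Smad9 lies on the left and passed the filter on low values only through its PCL libraries. Most lists hold points on both sides of 0.

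Likeness to the Id genes was taken as Pearson's r of log2(FPKM + 1) over the 7 libraries, among the 4999 other tested genes whose mean on PCL or ISB-P reached 16 FPKM. Id1 was most like Gadd45g (r = 0.960), Rbms1 (0.959) and Ezr (0.957). Id2 was most like the noncoding RNA LOC100911177 (r = 0.987), Azi2 (0.978) and Trip10 (0.963), and Id3 most like Nelfb (0.994), Strn4 (0.988) and Lrrc47 (0.987). An r over 0.9 was reached by 21 genes for Id1, 22 for Id2 and 200 for Id3. With 7 libraries that share replicate numbers, such values are a description only, with no test. Between the members, Smad6 and Smad7 had r = 0.977 and Id1 and Id2 had r = 0.717, while Id3 had r = 0.901 with Tgfb1 and -0.08 with Id2.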

How the data were processed

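Polyadenylated RNA of 7 rMSC libraries was made into strand-specific libraries and sequenced as paired ends. For each library a table of gene symbols was deposited by the authors, whose values are read here as FPKM. The submitters' processing notes name bcl2fastq 2.20.0.422, cutadapt 1.18, TopHat2 2.0.13, Cuffdiff 2.2.1 and the build rn5, and the methods name ExDEGA. The annotation and the handling of shared reads are not given in the sources used here. FPKM values hold no read counts, so the depth is unknown and no counting interval is given.

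A gene entered the tests when 3 or more of the 6 film libraries reached 1 FPKM, which held for 9467 genes. On log2(FPKM + 1), linear models were fitted and moderated with a mean trend (limma 3.58.1, R 4.3.3). All tests were two-sided, with Benjamini-Hochberg adjustment of the p-values of these genes. Because of the added 1, fold changes of low genes are understated. TCP, with 1 library, entered no test of the report and was fitted only as an alternative. The replicate numbers of the labels were taken to pair the film libraries, since deviations from the film mean correlated at 0.887, 0.431 and 0.867 across genes for same-numbered libraries, and at -0.836 to 0.177 for others. The deviations were taken within each film, so negative values for unlike numbers are partly built in. The pairing is thus inferred from these data, and the fit with the block is given beside the fit without it. The fit was first tested on simulated data with 200 of 9467 genes changed. At log2 changes of 1 and 2, 99% and 100% of the changed genes were recovered, with 9 false calls each. Smaller changes, such as those of Id1, Id2 and Tgfb2, were not simulated, so this check does not bear on them. Single ratios were compared by exact permutation over libraries.

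The members and lists were chosen with earlier results of these data known. The rule for named genes takes the members and Id4, and from each list the genes with an adjusted p under 0.05 and the 2 with the largest change among those with a mean of 16 FPKM or more on a film, and others are marked in the text. A gene that the rule names is not reported here. Alternatives were other scalings, filters and pseudocounts, the block, TCP in the fit and libraries left out. Python 3.11.15 and matplotlib 3.10.9 made the figures.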

Additional observations from a re-analysis of the deposited data

How the results depend on the processing

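The log2 fold changes of Id1, Id2 and Tgfb2 stayed above 0 in all 17 alternatives chosen at the outset, at 0.40 to 0.73, 0.43 to 0.62 and 0.46 to 0.90, but only the replicate block brought them under an adjusted p of 0.05 in limma. With that block 3 members and 41 pathway genes were called, against 0 and 3 without it. Combined with the block after the values were seen, a pseudocount of 0.1, upper quartile scaling, quantile normalization and a common total each called 3 members, and 41, 42, 43 and 48 pathway genes. Leaving out 1 replicate number with the block also called 3 members each time and 33 to 49 pathway genes, with 1 residual degree of freedom a gene. Without the block, leaving out 1 library or 1 replicate number gave 0 members and 0 to 4 pathway genes, and 0 to 82 higher and 0 to 31 lower genes over all tested genes, the 0 being without replicate 2, where 361 genes had an unadjusted p under 0.05. Over all tested genes the block called 1228 higher and 1079 lower in place of 104 and 59, upper quartile scaling 69 and 39, and the filter of 1 FPKM in all 6 films 35 lower. Under the same omissions the log2 fold change ranged from -0.204 to 0.0584 for Id3, -0.414 to 0.200 for Smad6, -0.236 to 0.0250 for Smad7, -0.206 to 0.0587 for Tgfb1 and -0.0507 to 0.0275 for Tgfb3, so their sign turned. With the block and without replicate 3 the values of Id3, Smad6, Tgfb1 and Tgfb3 were 0.00799, 0.0390, 0.00900 and 0.0124. These 5 members had no adjusted p under 0.05 in any of those 17. TCP was also put in a fit that pools the spread of the films, the lone TCP library being assumed to vary like them. The log2 ratios of TCP to ISB-P and to PCL there were 0.714 and 0.706 for Tgfb3, and 1.54 and 1.43 for Smad6. No p-value of that fit is given, because TCP has 1 library. The causes of these shifts were not tested. The unknown depth limits what can be said of genes near 1 FPKM such as Smad9.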

Other observations

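The subunits of activin and inhibin, outside the members and picked after their values were seen, went in opposite directions between the films. Inhba, shared by activin A and inhibin A, was 191 ± 34.3 FPKM (SD, n = 3) on PCL and 342 ± 52.4 on ISB-P. Inhbb was 2.32 ± 0.610 and 1.16 ± 0.221 FPKM and Inha, the inhibin alpha subunit, 3.18 ± 0.267 and 2.01 ± 0.737, both without overlap between the films. No overlap was found for 17.7% of all tested genes, and both genes lie near the filter of 1 FPKM. In the single TCP library the order was reversed as well. There Inhba (130.7 FPKM) was lower than in every film library, as were 29.7% of all tested genes. Inhbb (5.69) and Inha (5.39) were higher than in every film library, as were 25.4% of all tested genes. Adjusted p-values of Inhba, Inhbb and Inha in limma were 0.0898, 0.157 and 0.363 without the replicate block and 5.84e-05, 0.00573 and 0.0181 with it.

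Among the transcription factors of the TGF-β target list, Snai2 and Bhlhe40 were also without overlap, at 11.3 ± 1.17 and 20.8 ± 2.65 FPKM and at 54.8 ± 5.49 and 82.6 ± 8.67 FPKM on PCL and ISB-P. Of the 21 tested genes of this list, 5 were higher and 3 lower on ISB-P without overlap, beside 17.7% of all tested genes in either direction. Spsb1 (log2 fold change -0.48) and Tsc22d1 (-0.24) of the same list were called lower with the block. Snai2 and Bhlhe40 were higher still in the single TCP library, at 43.3 and 102.9 FPKM. TCP lay above all film libraries for 12 of the 21 genes, beside 25.4% of all tested genes. Ctgf, a matrix-associated target of both TGF-β and YAP, was 30.7 ± 3.03 FPKM on PCL, 24.7 ± 0.412 on ISB-P and 119 on TCP. These genes too were picked after their values were seen, and adjusted p-values in limma for Snai2, Bhlhe40 and Ctgf were 0.0510, 0.126 and 0.426 without the replicate block and 0.000440, 0.000564 and 0.0265 with it.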
